A study of Rattus norvegicus with 30 samples.

Results

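Wnt signalling genes were followed here in CD31+ rat lung cells after surgery that reroutes venous blood to the lung. The 53 genes are the rows of the deposited table whose names are those of Wnt ligands, Frizzled receptors, secreted frizzled-related proteins, Dickkopf proteins or R-spondins, together with Lrp5, Lrp6, Ror1, Ror2, Frzb, Wif1, Axin2, Lef1, Tcf7, Notum, Rnf43 and Znrf3. They are 53 of 30562 rows, and 42 of them were among the 16171 genes with enough counts to be tested. The rule uses names only, not measured values.

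The rats were labelled wild-type and had either a Glenn operation, which connects a large systemic vein to the lung's artery and so feeds the lung with blood that has bypassed the liver, or a sham operation. Each arm was divided over a vitamin A control diet, a vitamin A deficient diet and a vitamin A excess diet, and lung cells were collected with CD31 microbeads at 3 weeks. There were 6 groups of 5 libraries. Strain, age and sex are not given in the sources used here, and nothing there says whether the 5 libraries of a group came from separate animals, so p-values measure the spread between libraries only.

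Wnt proteins are lipid-modified ligands that bind Frizzled receptors together with LRP5 or LRP6, which stabilises β-catenin and lets it act with TCF/LEF factors on target genes. Other Wnt ligands act through Frizzled with ROR receptors on cell polarity and movement. Secreted proteins such as WIF1, the SFRPs and the Dickkopf family block ligand or co-receptor, while R-spondins raise the amount of Frizzled at the surface by holding back the ubiquitin ligases RNF43 and ZNRF3. In vessels, β-catenin signalling is known for its part in barrier properties and capillary maturation.

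The libraries held 22 to 77.6 M counts (median 40 M). They fall into a lower and a higher range of library numbers (22 and 8 libraries), which was a term in the fit. They also fall into 17 libraries with a low level of the class I histocompatibility gene RT1-CE16 (21.9 to 44.4 CPM, counts per 1 M after TMM scaling, where M stands for mega) and 13 with a high level (407 to 949 CPM). The 2 splits are nested: all 8 libraries with higher numbers had the high level, so all 17 with the low level had lower numbers. Checks on either subset alone therefore drop some of the same libraries. The sham excess diet group held libraries with the low level only, and both control diet groups and the sham excess diet group held only the lower library numbers. Endothelial markers were present in every library: Cdh5, the endothelial cadherin, ranged from 1557 to 2926 CPM. Markers of other lung cells were present too. Sftpc, the surfactant gene of type 2 epithelium, averaged 25747 CPM in sham groups, against 19774 CPM in Glenn groups. The 9 mural markers and the 8 fibroblast markers were all above 0 in every library. In such mixed samples, fewer cells of a type and less RNA per cell cannot be told apart.

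Of the 53 genes, 11 had too few counts to be tested. These were 8 of the 19 ligands (Wnt1, Wnt3, Wnt6, Wnt8a, Wnt8b, Wnt10a, Wnt10b and Wnt16), the inhibitors Dkk1 and Sfrp5, and Rspo4. Rspo4 had 0 counts in all 30 libraries, and the highest count of any of the others in a library was 27, in Wnt10a. All 10 Frizzled receptors, all 4 co-receptors, all 4 feedback genes and both TCF/LEF factors were tested. Fzd10 and Rspo3 were near the limit: Fzd10 reached the level of the filter (0.25 CPM) in 0 sham and 5 Glenn libraries, and Rspo3 in 3 sham and 6 Glenn libraries. A gene that enters through the arm in which it is high had to differ, so counts are also given for the 40 genes that reached this level in at least 5 libraries of each arm.

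Promoter sequences are shown for 4 genes on which the results turn: Axin2, the feedback scaffold that is a common readout of β-catenin activity, the TCF/LEF factors Lef1 and Tcf7, and the inhibitor Wif1. All 4 were lower after Glenn surgery. Each line gives the 250 bases before the annotated start, 5′ to 3′ on the gene's strand, from RefSeq (build GRCr8). The coordinates are chr10:94398535-94398784 (plus strand) for Axin2, chr2:222340463-222340712 (plus) for Lef1, chr10:36954280-36954529 (minus) for Tcf7 and chr7:58433329-58433578 (plus) for Wif1. Capitals mark a match to CTTTGNT, the pattern chosen here to look for TCF/LEF sites, searched on both strands. Other endings are not counted, such as the ctttgaa near the 5′ end of the Axin2 line.
Axin2: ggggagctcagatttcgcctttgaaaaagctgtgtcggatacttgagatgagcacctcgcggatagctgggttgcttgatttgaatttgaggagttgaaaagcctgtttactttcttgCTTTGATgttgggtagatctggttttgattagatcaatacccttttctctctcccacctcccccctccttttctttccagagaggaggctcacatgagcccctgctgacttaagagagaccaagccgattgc
Lef1: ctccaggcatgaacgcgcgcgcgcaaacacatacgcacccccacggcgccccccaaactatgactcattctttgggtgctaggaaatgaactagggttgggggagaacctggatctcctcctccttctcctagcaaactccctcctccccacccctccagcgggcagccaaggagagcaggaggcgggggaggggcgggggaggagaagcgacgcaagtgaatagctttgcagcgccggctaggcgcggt
Tcf7: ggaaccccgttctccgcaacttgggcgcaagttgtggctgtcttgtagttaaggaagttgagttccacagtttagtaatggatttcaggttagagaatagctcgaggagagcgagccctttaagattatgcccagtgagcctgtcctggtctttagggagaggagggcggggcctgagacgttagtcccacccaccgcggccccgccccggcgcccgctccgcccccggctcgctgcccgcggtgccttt
Wif1: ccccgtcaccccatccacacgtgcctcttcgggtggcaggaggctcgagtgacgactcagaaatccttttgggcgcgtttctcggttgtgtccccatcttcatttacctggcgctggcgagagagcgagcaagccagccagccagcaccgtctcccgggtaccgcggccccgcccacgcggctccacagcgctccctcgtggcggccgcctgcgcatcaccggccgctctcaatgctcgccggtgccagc
Axin2 held 1 match, which had the stricter letters CTTTGAT and began 132 bases before the start. The other 3 windows held none. Among 33469 RefSeq promoters of this length, 16.38% held CTTTGNT and 3.15% held CTTTGAT. Of the 36 Wnt genes found in the RefSeq table, 2 held CTTTGNT, Axin2 and the untested Dkk1. A match of letters is a description of the sequence and not a measured binding site.

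The first comparison asked how the Wnt genes differed between Glenn and sham lungs over the 3 diets. The ligand Wnt5b and the inhibitor Wif1 fell steeply, and Axin2, Lef1 and Tcf7 fell with them, as did the receptors Fzd4 and Fzd8. In the other direction, 5 ligands (Wnt2, Wnt3a, Wnt4, Wnt7a and Wnt9a), 5 inhibitors (Dkk2, Dkk3, Frzb, Sfrp1 and Sfrp2) and 4 Frizzled receptors (Fzd2, Fzd6, Fzd9 and Fzd10) rose. Of these, Fzd10 reached the level of the filter in Glenn libraries only. In all, 24 of 42 genes passed an adjusted p of 0.05 in edgeR's quasi-likelihood test, 17 higher and 7 lower. The background is large: 48.2% of all genes passed in this comparison, 23.4% higher and 24.7% lower. Among the 40 genes present in both arms, 22 passed, 15 higher and 7 lower. The sizes were larger than those of most genes. The median absolute log2 change was 0.55 for the 42 genes and 0.22 for all genes tested. A larger median was not particular to surgery. Between excess and deficient diets after Glenn, where 0 of the 42 genes were called, the medians were 0.36 and 0.10. Between deficient and control diets after sham, also with 0 called, they were 0.17 and 0.11. The change was called and at least 2-fold for 13 of the 42, and for 8.76% of all genes. Without Fzd10 and Rspo3, it was called and at least 2-fold for 11 of the 40 genes present in both arms.

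**Figure D1:**
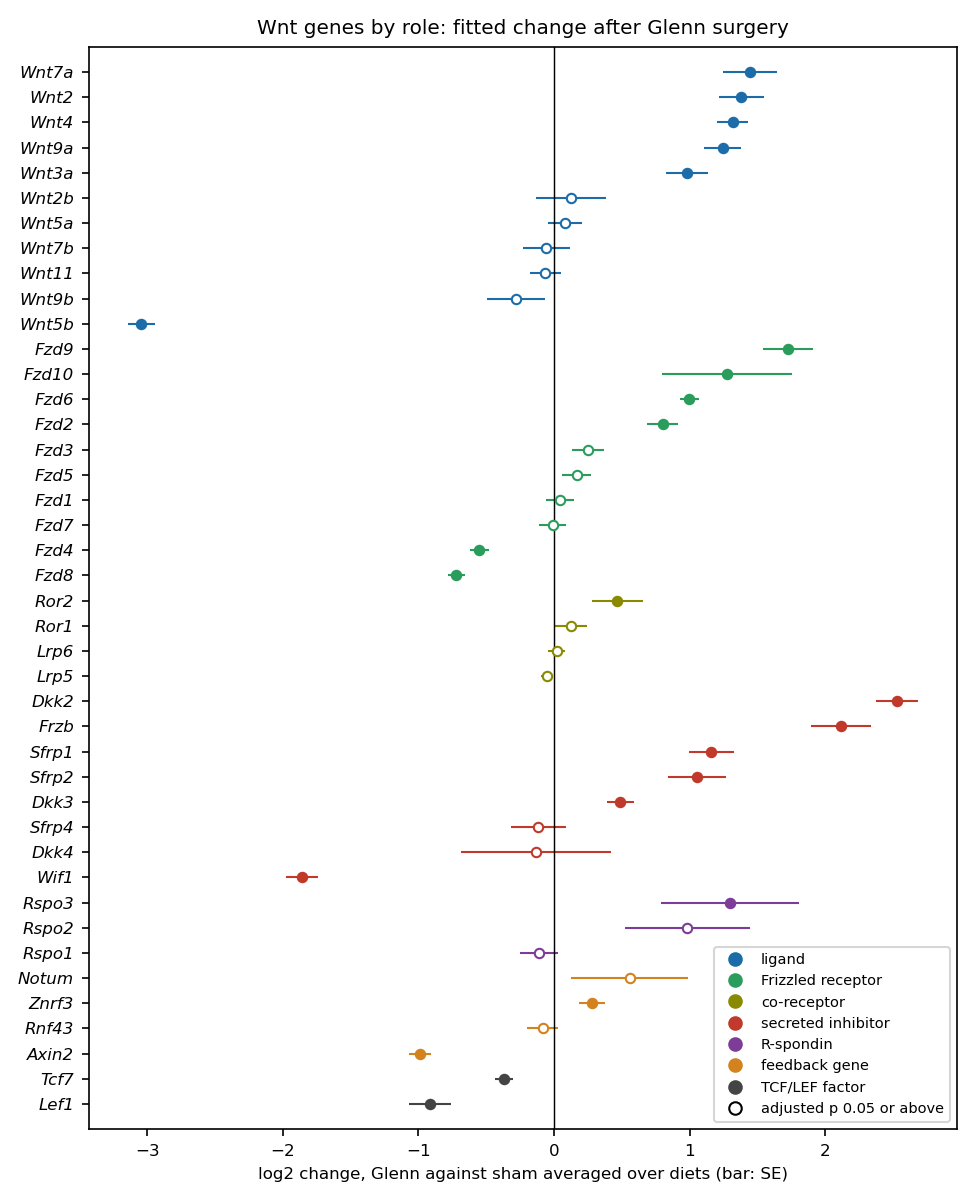
Fitted log2 change of each of the 42 tested Wnt genes, Glenn against sham averaged over the 3 diets, grouped by role (colour). Bars are standard errors, and filled points passed an adjusted p of 0.05 (edgeR, 30 libraries). Wnt5b lies furthest to the left at -3.04 and Dkk2 furthest to the right at 2.53.

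Ligands moved in both directions. Wnt5b (ENSRNOG00000008168), a ligand known mainly for signalling that does not use β-catenin, had the highest mean CPM of the Wnt ligands over all 30 libraries, on a scale not corrected for gene length. That rank came from the sham libraries: in Glenn libraries its mean was 5.3 CPM, below that of Wnt4 (22.4 CPM). In sham libraries it ranged from 28.2 to 58.3 CPM (median 43.0), and in Glenn libraries from 2.49 to 7.65 CPM (median 5.55). Every Glenn library lay below every sham library. The fitted change was 8.24-fold lower, a log2 change of -3.04 with an SE of 0.10 (adjusted p = 8.65e-20, edgeR).

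The 5 ligands that rose had changes of similar size, between 0.98 and 1.45 on the log2 scale. Wnt7a (ENSRNOG00000048782), which acts on brain vessels in development, ranged from 1.78 to 7.74 CPM after sham (median 3.89) and from 4.85 to 25.1 CPM after Glenn (median 11.7), a log2 change of 1.45 with an SE of 0.20 (edgeR adjusted p = 7.18e-07). Wnt2 (ENSRNOG00000051905), a ligand needed for the early lung, ranged from 1.92 to 6.21 CPM (median 3.67) and from 4.71 to 14.9 CPM (median 9.12), a log2 change of 1.38 with an SE of 0.17 (edgeR adjusted p = 5.95e-08). In both genes the arms overlapped at their edges.

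Wnt4 (ENSRNOG00000013166) rose from a mean of 8.82 ± 1.61 CPM to 22.4 ± 6.38 CPM (SD, n = 15 libraries in each arm). Wnt9a (ENSRNOG00000003066) rose from 4.47 ± 1.32 to 11.1 ± 3.25 CPM. Wnt3a (ENSRNOG00000003039), a ligand of the β-catenin branch, rose from 9.5 ± 1.91 to 19.7 ± 6.65 CPM. Their log2 changes were 1.32, 1.25 and 0.98, each past the threshold in edgeR. The remaining 5 tested ligands, Wnt2b, Wnt5a, Wnt7b, Wnt9b and Wnt11, did not pass, with log2 changes between -0.28 and 0.12. Wnt5a, the close relative of Wnt5b, had a log2 change of 0.08 with an SE of 0.13: it ranged from 4.5 to 13.9 CPM after sham and from 4.03 to 11.5 CPM after Glenn.

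Among secreted inhibitors, Wif1 (ENSRNOG00000004476), which binds Wnt proteins directly, was the most abundant by CPM. Sham libraries ranged from 553 to 834 CPM (median 744), and Glenn libraries from 107 to 461 CPM (median 197), with no overlap. The fitted level was 3.62-fold lower (log2 change -1.86, SE 0.12, adjusted p = 1.94e-13, edgeR). Dkk2 (ENSRNOG00000011360), a Dickkopf protein that binds LRP5 and LRP6, moved the other way without overlap. It ranged from 3.28 to 7.43 CPM after sham (median 5.12) and from 15.7 to 52.7 CPM after Glenn (median 25.9). This was 5.77-fold higher (log2 change 2.53, SE 0.15, adjusted p = 1.10e-13, edgeR).

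Frzb (ENSRNOG00000007765), Sfrp1 (ENSRNOG00000017783) and Sfrp2 (ENSRNOG00000009465) carry a Frizzled-like domain that captures Wnt ligands, and all 3 rose. Frzb ranged from 0.826 to 4.05 CPM after sham (median 1.73) and from 3.39 to 16.8 CPM after Glenn (median 8.71), a 4.33-fold rise (log2 change 2.11, SE 0.22). Sfrp1 and Sfrp2 rose by 1.16 and 1.05 on the log2 scale, and Dkk3 by 0.49. Sfrp4 and Dkk4 did not pass, with log2 changes of -0.12 and -0.13. Over the role, 6 of 8 tested inhibitors passed, 5 higher and 1 lower (Wif1), against 23.4% and 24.7% of all genes.

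Markers of other cells moved in the same comparison, in which 23.4% of all genes were called higher and 24.7% lower. All 9 mural markers rose, and their summed level ranged from 161 to 328 CPM in sham libraries and from 467 to 1689.6 CPM in Glenn libraries. All 8 fibroblast markers rose, with sums of 474 to 980.1 CPM and 747 to 1528 CPM. All 6 lymphatic markers rose, with sums of 1090.0 to 2004 CPM and 2468 to 5101 CPM. Of the 5 general capillary markers, 4 fell, and the sum of all 5 went from a median of 7519 CPM to 3504 CPM. Plvap, the largest part of that sum, went from a mean of 5149 to 1563 CPM and made most of its fall. The others changed less, with log2 changes of -0.57 for Kit, -0.32 for Aplnr, -0.20 for Cd93 and 0.10 for Gpihbp1 (not called). All 5 type 2 epithelial markers fell, with median sums of 41067 and 29433 CPM, although on the control diet these medians were 40203 CPM after sham and 41310 CPM after Glenn. Type 1 epithelial markers gave 3 higher and 1 lower of 4, with median sums of 734 and 1087 CPM. Aerocyte markers gave 1 higher and 3 lower of 5 (1337 and 897 CPM), and venous markers 1 higher and 3 lower of 5 (1973 and 1353 CPM). Endothelial markers gave 3 higher and 3 lower of 7 (7513 and 6257 CPM), and arterial markers 3 higher and 3 lower of 6 (894 and 862 CPM). Leukocyte markers gave 0 higher and 2 lower of 5 tested, with log2 changes of -0.76 for Cd68 and -0.56 for Lyz2. Airway markers gave 1 higher and 0 lower of 4. The part of these cells in the Wnt gene changes was not tested.

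**Figure D2:**
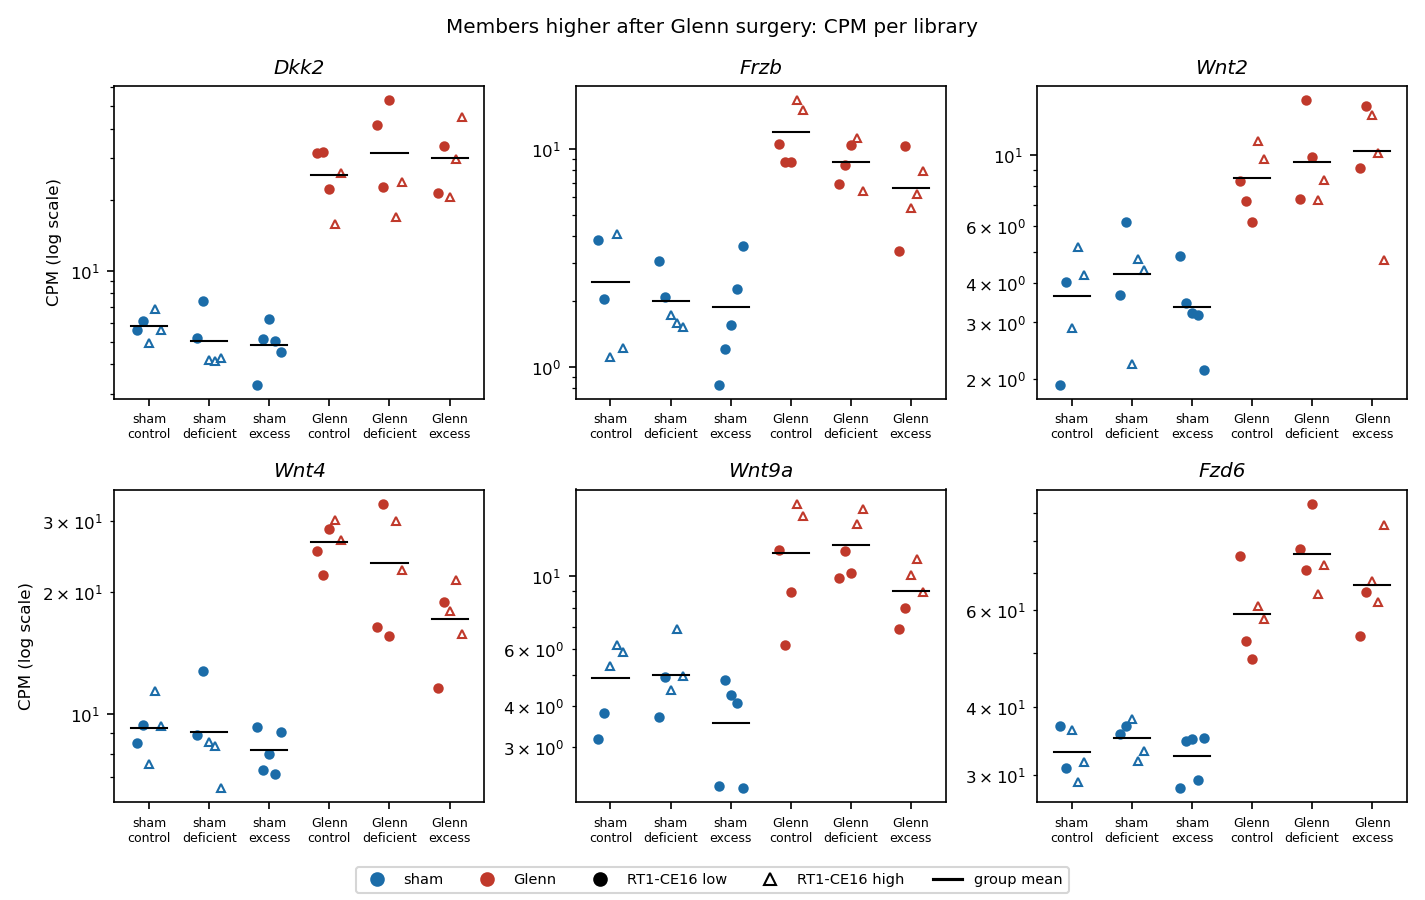
CPM per library (log scale) for 6 Wnt genes that were higher after Glenn surgery, with sham libraries in blue, Glenn libraries in red, horizontal bars at group means and triangles for libraries with a high RT1-CE16 level. In the Dkk2 panel the 15 Glenn libraries, from 15.7 to 52.7 CPM, all lie above the 15 sham libraries, from 3.28 to 7.43 CPM.

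Receptors changed in both directions. Fzd6 (ENSRNOG00000004660), a Frizzled known for its part in planar polarity, ranged from 28.4 to 37.9 CPM after sham (median 34.6) and from 48.7 to 93.7 CPM after Glenn (median 64.6). The arms did not overlap, and the log2 change was 1.00 with an SE of 0.07 (edgeR adjusted p = 6.26e-13). Fzd9 (ENSRNOG00000001452) also separated the arms, at a low level, with 0.289 to 1.23 CPM after sham and 1.25 to 3.60 CPM after Glenn (log2 change 1.72, SE 0.18). Fzd2 rose from a mean of 12.8 to 23.7 CPM (log2 change 0.80, SE 0.12). Fzd10 passed (log2 change 1.28, SE 0.48, edgeR adjusted p = 0.0293) with at most 20 counts in any library.

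Fzd8 and Fzd4 fell. Fzd8 (ENSRNOG00000069521), the most abundant Frizzled by CPM, ranged from 165 to 278 CPM after sham (median 196) and from 101 to 178 CPM after Glenn (median 109), so that the arms overlapped at the edge (log2 change -0.72, SE 0.06, edgeR adjusted p = 1.77e-10). Fzd4, the receptor that also binds norrin in retinal vessels, ranged from 53.5 to 79.1 CPM and from 26.1 to 51.6 CPM, with no overlap (log2 change -0.55, SE 0.07, edgeR adjusted p = 1.30e-07). Fzd1, Fzd3, Fzd5 and Fzd7 did not pass, with log2 changes between -0.01 and 0.25.

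The co-receptors of the β-catenin branch differed little. Lrp5 (ENSRNOG00000015911) ranged from 84.0 to 128 CPM after sham and from 97.0 to 119 CPM after Glenn, and its log2 change was -0.05 with an SE of 0.04. Lrp6 had a log2 change of 0.02 with an SE of 0.07. Of the ROR receptors, Ror2 passed the threshold (log2 change 0.47, SE 0.19, edgeR adjusted p = 0.0429) with overlapping arms, and Ror1 did not (log2 change 0.12, SE 0.12).

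Feedback genes and TCF/LEF factors went in different directions. Axin2 (ENSRNOG00000055010), a scaffold of the complex that degrades β-catenin and itself a target, ranged from 9.42 to 16.6 CPM after sham (median 13.9) and from 5.05 to 9.57 CPM after Glenn (median 6.98). The lowest sham library lay just below the highest Glenn library. The fitted level was 1.99-fold lower (log2 change -0.99, SE 0.08, adjusted p = 2.05e-11, edgeR). Its means by diet (control, then deficient, then excess) were 14.8 ± 0.941, 14.4 ± 1.84 and 12.6 ± 2.18 CPM in the sham arm and, in the Glenn arm, 6.82 ± 1.13, 7.86 ± 1.32 and 6.53 ± 0.863 CPM (SD, n = 5 each).

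Lef1 (ENSRNOG00000010121) ranged from 1.83 to 6.06 CPM after sham (median 3.31) and from 1.09 to 3.33 CPM after Glenn (median 1.91), a log2 change of -0.91 with an SE of 0.16 (edgeR adjusted p = 1.77e-05). Tcf7 (ENSRNOG00000005872) ranged from 58.7 to 98.7 CPM (median 74.2) and from 48.8 to 75.5 CPM (median 60.0), a smaller log2 change of -0.37 with an SE of 0.07 (edgeR adjusted p = 5.10e-05). In both genes the arms overlapped. Over the 17 libraries with the low RT1-CE16 level alone, the Tcf7 change was -0.23 and did not pass (adjusted p = 0.0754, edgeR).

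Of the other feedback genes, Znrf3 (ENSRNOG00000067305), the ligase that removes Frizzled from the surface, was 1.21-fold higher (log2 change 0.28, SE 0.10, adjusted p = 0.0184, edgeR). That call was lost in the lower library numbers alone (0.24, adjusted p = 0.149) and in the libraries with the low RT1-CE16 level alone (0.28, adjusted p = 0.213). Rnf43 (ENSRNOG00000007606), its paralogue, ranged from 7.45 to 13.3 CPM after sham and from 6 to 15.3 CPM after Glenn and did not pass (log2 change -0.08, SE 0.11). Notum (ENSRNOG00000036680), the enzyme that strips the lipid from Wnt proteins, averaged 0.271 CPM over all libraries and did not pass (log2 change 0.56, SE 0.43).

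**Figure D3:**
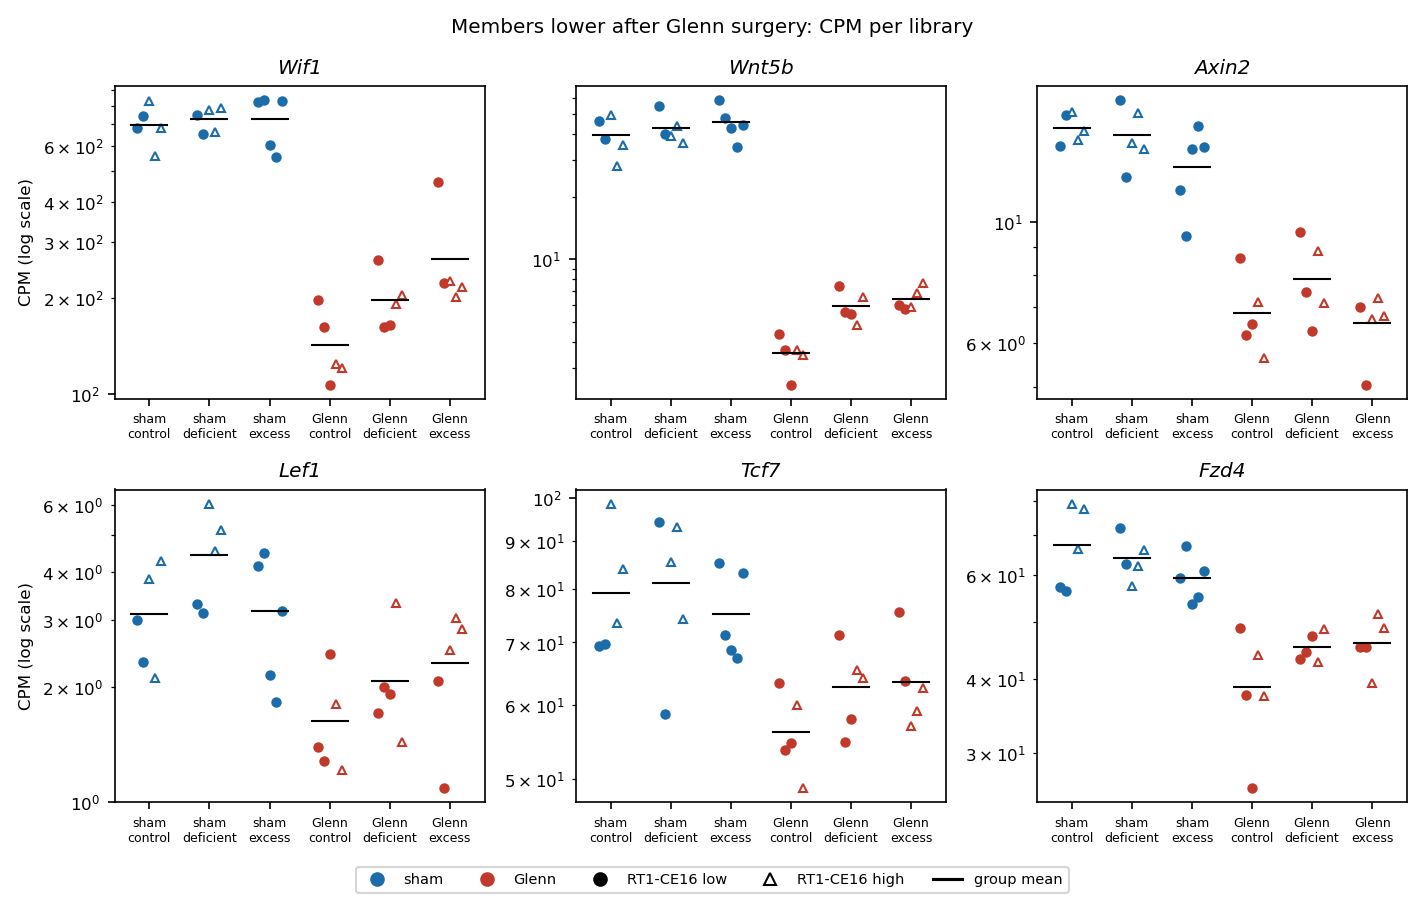
CPM per library (log scale) for Wif1, Wnt5b, Axin2, Lef1, Tcf7 and Fzd4 in the 6 groups, with sham libraries in blue, Glenn libraries in red, horizontal bars at group means and triangles for libraries with a high RT1-CE16 level. The arms do not overlap for Wif1, Wnt5b and Fzd4, and they overlap for Axin2, Lef1 and Tcf7.

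Outside the 53 genes, 71 further names of the pathway were listed, and 69 were tested. In the averaged comparison 43 of them passed, 23 higher and 20 lower, which is a share to be read against the 48.2% of all genes. Among 16 tested target genes, listed without regard to whether the pathway raises or lowers them, 7 rose and 7 fell. Nkd1, an inhibitor of Dishevelled induced by β-catenin, fell from a mean of 309 to 181 CPM (log2 change -0.75, SE 0.06), and Tbx3 from 273 to 103 CPM (log2 change -1.40, SE 0.07). Nkd2 rose from 19.6 to 40.2 CPM (log2 change 1.04, SE 0.08), and Myc from 57.5 to 120.0 CPM (log2 change 1.10, SE 0.07). For these 4 genes the arms did not overlap, which was so for 5.83% of all genes. Plvap, also a general capillary marker here, fell from 5149 to 1563 CPM (log2 change -1.69, SE 0.09), again without overlap. Tnfrsf19 rose from 0.18 to 0.42 CPM (log2 change 1.41, SE 0.55), at a low level and with overlapping arms. The nuclear partners of β-catenin split too, with 4 higher and 3 lower of 9 tested. Tcf7l2 rose from 31.7 to 51.0 CPM (log2 change 0.69, SE 0.05) and Tcf7l1 from 46.8 to 61.2 CPM (log2 change 0.39, SE 0.04). Bcl9l fell from 45.7 to 33.8 CPM (log2 change -0.42, SE 0.07). Of 15 destruction complex and transducer genes, 3 rose and 3 fell. Among them Ctnnb1, the β-catenin gene, rose from 266 to 349 CPM (log2 change 0.39, SE 0.04). The arms did not overlap for Tcf7l2, Tcf7l1 and Ctnnb1.

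Planar polarity genes gave 3 higher and 4 lower of 10 tested, against 48.2% of all genes called. The rises were small, with log2 changes of 0.41 for Daam2, 0.31 for Celsr1 and 0.11 for Vangl1, and Daam1 fell by 0.25. Prickle1, a cytoplasmic core component, fell from 119 to 38.5 CPM (log2 change -1.63, SE 0.08), and Vangl2, its membrane partner, from 22.2 to 9.14 CPM (log2 change -1.31, SE 0.09). Prickle2 fell from 134 to 77.7 CPM (log2 change -0.77, SE 0.07). In the receptor complex, the norrin and Fzd4 partner Tspan12 fell from 380.3 to 246 CPM (log2 change -0.63, SE 0.05), and the glypican Gpc4 rose from 31.7 to 89.7 CPM (log2 change 1.44, SE 0.09). For Prickle1, Vangl2, Prickle2, Tspan12 and Gpc4, too, the arms did not overlap (5.83% of all genes). The largest change among the further names was that of Sost, also listed with the receptor complex. It fell from 0.520 to 0.0499 CPM (log2 change -3.41, SE 0.56), at a low level and with overlapping arms.

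The next comparisons asked whether the surgical differences were present on each diet. On the control diet 18 of 42 genes passed, 11 higher and 7 lower, against 24.9% of all genes (11.8% higher and 13.1% lower). On the deficient diet 20 passed, 13 higher and 7 lower, against 27.4% (13.7% higher and 13.7% lower), and on the excess diet 15 passed, 11 higher and 4 lower, against 21.9% (11.6% higher and 10.4% lower). Among the 40 genes present in both arms the counts were 18, 20 and 14, and the gene that dropped out on the excess diet was Rspo3. On the deficient diet the count was 12 in the lower library numbers alone and 13 in the libraries with the low RT1-CE16 level alone.

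Altogether 13 genes were called in the same direction on all 3 diets, against 13.5% of all genes. Axin2, Wnt5b, Wif1 and Lef1 were lower on each diet, and Fzd6, Fzd9, Wnt2, Wnt4, Wnt7a, Wnt9a, Dkk2, Frzb and Sfrp1 were higher. For 7 of these (Axin2, Fzd6, Wnt4, Wnt5b, Wnt9a, Dkk2 and Wif1) the call on each diet held under every alternative that was run, libraries left out included. The other 6 lost a call on at least 1 diet under some alternative, most often Sfrp1 on the control diet (28 of 41 alternatives) and Lef1 on the excess diet (12 of 40). Over all 30 libraries, the arms did not overlap for 6 genes, Fzd4, Fzd6, Fzd9, Wnt5b, Dkk2 and Wif1, and for 5.83% of all genes.

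**Figure D4:**
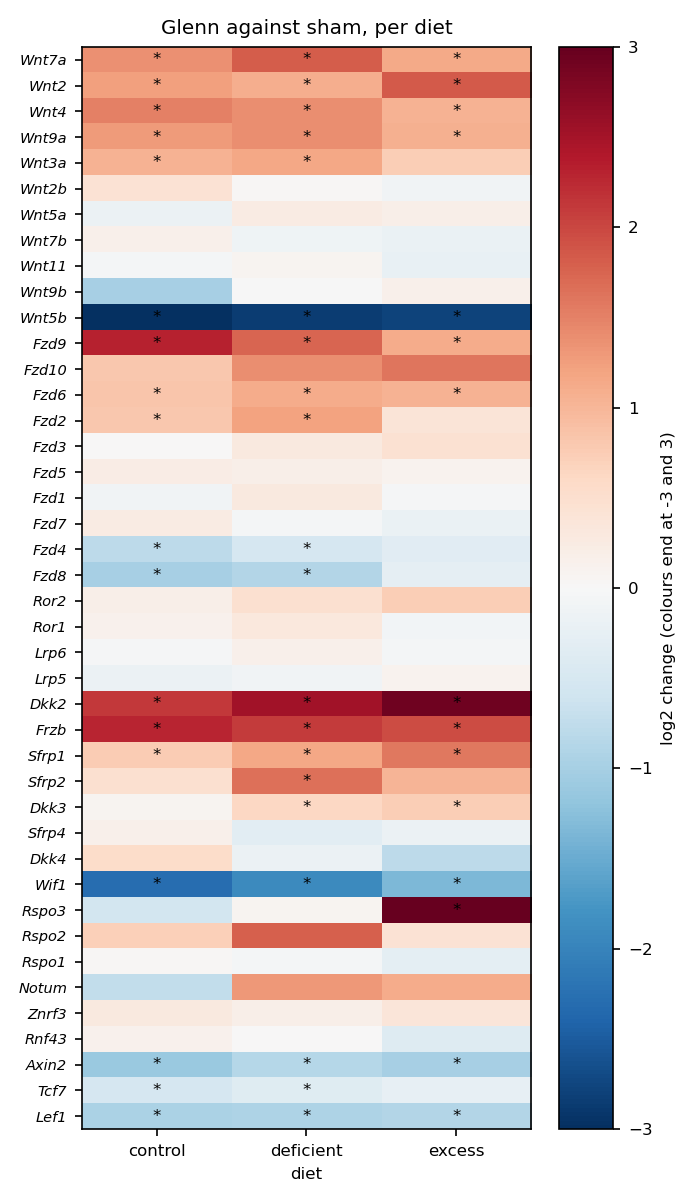
Fitted log2 change, Glenn against sham, of the 42 tested Wnt genes on each diet (columns), with red for higher and blue for lower after Glenn surgery and stars for an adjusted p under 0.05 (edgeR). Wnt5b is dark blue on all 3 diets (-3.48, -2.86 and -2.79), and Fzd8 is starred on the control and deficient diets and not on the excess diet.

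The levels of each group follow for the genes chosen by size of change, role or diet call, as means and SD of 5 libraries in the order control, deficient and excess diet. Among the ligands, Wnt5b averaged 39.4 ± 8.47, 42.6 ± 7.08 and 45.6 ± 8.53 CPM in sham groups, against 3.52 ± 0.678, 5.95 ± 1.03 and 6.43 ± 0.806 CPM in Glenn groups. The fall was present in each diet pair, and the Glenn control diet group was the lowest. Wnt7a averaged 5.53 ± 1.96, 4.27 ± 0.538 and 3.69 ± 1.43 CPM in sham groups, against 14.4 ± 7.94, 14.6 ± 4.19 and 9.99 ± 3.65 CPM in Glenn groups. Wnt2 averaged 3.64 ± 1.26, 4.24 ± 1.46 and 3.36 ± 0.974 CPM in sham groups, against 8.52 ± 1.96, 9.54 ± 3.17 and 10.3 ± 3.8 CPM in Glenn groups. Wnt4 averaged 9.25 ± 1.44, 9.04 ± 2.28 and 8.17 ± 1.01 CPM in sham groups, against 26.6 ± 3.12, 23.5 ± 7.81 and 17.2 ± 3.71 CPM in Glenn groups. The Glenn mean was above the sham mean on each diet for these 3, with the lowest Glenn mean on the excess diet for Wnt7a and Wnt4 and on the control diet for Wnt2. Wnt9a averaged 4.87 ± 1.31, 4.99 ± 1.18 and 3.56 ± 1.20 CPM in sham groups, against 11.8 ± 4.33, 12.5 ± 2.65 and 9.02 ± 1.71 CPM in Glenn groups. Wnt3a averaged 10.4 ± 1.58, 9.40 ± 1.74 and 8.71 ± 2.33 CPM in sham groups, against 21.3 ± 8.11, 20.5 ± 6.13 and 17.3 ± 6.34 CPM in Glenn groups. For Wnt3a the call was made on the control and deficient diets and not on the excess diet.

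Among the inhibitors, Wif1 averaged 699.6 ± 99.7, 726 ± 65.0 and 729 ± 138 CPM in sham groups, against 142 ± 36.8, 198 ± 40.7 and 266 ± 109.8 CPM in Glenn groups. The Glenn mean was lowest on the control diet, so the means did not follow the amount of vitamin A. It was highest on the excess diet, where 1 library lay at 461 CPM against 201 to 226 CPM in the others. The sham means lay within 1 SD of each other. Dkk2 averaged 5.82 ± 0.708, 5.04 ± 1.41 and 4.84 ± 1.06 CPM in sham groups, against 25.4 ± 6.74, 31.4 ± 15 and 30 ± 9.91 CPM in Glenn groups. Frzb averaged 2.45 ± 1.41, 2 ± 0.631 and 1.88 ± 1.08 CPM in sham groups, against 12.0 ± 3.77, 8.70 ± 2.13 and 6.65 ± 2.64 CPM in Glenn groups. Dkk2 was highest in the Glenn deficient diet group, where its spread was also the widest, and Frzb was highest in the Glenn control diet group. Sfrp1 averaged 1.96 ± 0.476, 1.58 ± 0.585 and 1.34 ± 0.358 CPM in sham groups, against 3.31 ± 1.60, 3.88 ± 1.80 and 2.95 ± 0.953 CPM in Glenn groups. Sfrp2 averaged 2.65 ± 1.23, 2.02 ± 1.05 and 2.34 ± 1.64 CPM in sham groups, against 3.71 ± 0.417, 7.06 ± 2.66 and 3.46 ± 0.772 CPM in Glenn groups. Sfrp2 was called on the deficient diet only, and the difference between diets was not called.

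Among the receptors, Fzd6 averaged 33.0 ± 3.41, 35.1 ± 2.53 and 32.5 ± 3.28 CPM in sham groups, against 59.1 ± 10.2, 75.8 ± 11.1 and 66.7 ± 11.8 CPM in Glenn groups. Fzd9 averaged 0.485 ± 0.137, 0.815 ± 0.140 and 0.784 ± 0.415 CPM in sham groups, against 2.42 ± 0.413, 2.74 ± 0.798 and 1.67 ± 0.278 CPM in Glenn groups. Fzd8 averaged 207 ± 23.4, 210.0 ± 53.1 and 203 ± 32.7 CPM in sham groups, against 104 ± 3.57, 118 ± 20.2 and 142 ± 29.2 CPM in Glenn groups. The sham means of Fzd8 lay within 1 SD of each other, and its Glenn control diet libraries were the tightest group. Lrp5 averaged 116 ± 7.64, 109 ± 12.3 and 104 ± 12.3 CPM in sham groups, against 104 ± 4.16, 103 ± 5.54 and 108 ± 7.35 CPM in Glenn groups. The Lrp5 means of the 6 groups spanned 103 to 116 CPM.

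Among the factors and feedback genes, Lef1 averaged 3.11 ± 0.941, 4.44 ± 1.24 and 3.16 ± 1.18 CPM in sham groups, against 1.62 ± 0.510, 2.08 ± 0.734 and 2.31 ± 0.776 CPM in Glenn groups. Tcf7 averaged 79.0 ± 12.4, 81.2 ± 14.9 and 75.1 ± 8.41 CPM in sham groups, against 56.1 ± 5.66, 62.7 ± 6.51 and 63.5 ± 7.21 CPM in Glenn groups. The highest sham mean of both was on the deficient diet. Znrf3 averaged 29.6 ± 2.55, 28.3 ± 1.97 and 25.7 ± 4.08 CPM in sham groups, against 36.5 ± 2.34, 31.8 ± 10.3 and 33.6 ± 2.59 CPM in Glenn groups. Rnf43 averaged 9.86 ± 1.54, 10.8 ± 2.29 and 9.49 ± 1.84 CPM in sham groups, against 10.9 ± 2.42, 10.7 ± 2.71 and 8.17 ± 2.37 CPM in Glenn groups. The wide SD of Znrf3 in the Glenn deficient diet group comes from 1 library at 13.5 CPM. Notum averaged 0.418 ± 0.294, 0.165 ± 0.135 and 0.122 ± 0.0995 CPM in sham groups, against 0.249 ± 0.119, 0.432 ± 0.261 and 0.241 ± 0.281 CPM in Glenn groups. Notum was below 1 CPM in every library. Rspo1 averaged 75.1 ± 29.4, 71.6 ± 22.2 and 40.3 ± 2.61 CPM in sham groups, against 76.3 ± 29.5, 62.9 ± 27.6 and 49.5 ± 17.5 CPM in Glenn groups. Rspo1 had its lowest mean, and its smallest SD, in the sham excess diet group.

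A test of the surgery by diet interaction called 0 of the 42 genes, and 0.00618% of all genes. DESeq2 called 1 of the 42 genes, and 35 of all genes. The smallest adjusted p was 0.250, for Fzd8 (unadjusted p = 0.000297, edgeR). Its surgical log2 change was -1.0 on the control diet, -0.89 on the deficient diet and -0.27 on the excess diet, so the missing call on the excess diet is not shown to differ from the other 2 after adjustment. These fitted values include the library number term. On the excess diet, 0 sham and 3 Glenn libraries had higher numbers, so this value leans on that term. It is smaller in size than the means of 203 CPM after sham and 142 CPM after Glenn imply.

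The last comparisons set the diets against each other within each arm. Deficient and control diets differed for 0 of 42 genes after sham (0% of all genes, 5 of the 42 at an unadjusted p under 0.05, 0 by DESeq2) and for 0 after Glenn (0.00618% of all genes, 7 at an unadjusted p under 0.05, 1 by DESeq2), in edgeR. Excess and deficient diets differed for 0 after sham (0.0124% of all genes, 3 at an unadjusted p under 0.05, 0 by DESeq2) and for 0 after Glenn (0% of all genes, 13 at an unadjusted p under 0.05, 0 by DESeq2). The percentages are of adjusted calls in edgeR. Shares of all genes at an unadjusted p under 0.05 are not given here, so those counts are not read further. Over all genes, DESeq2 called 26 (sham) and 63 (Glenn) for deficient against control diet, and 12 and 18 for excess against deficient diet. These diet comparisons share groups with those that follow.

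After Glenn surgery, the excess diet differed from the control diet for 4 genes, against 1.47% of all genes (0.89% higher and 0.575% lower). Wif1, Wnt5b and Fzd8 were higher and Rspo1 was lower on the excess diet. Wif1 was 461, 223, 226, 201 and 217 CPM in the 5 excess diet libraries and 197, 162, 107, 124 and 121 CPM in the control diet libraries. All excess diet libraries lay above all control diet libraries, with the closest at 201 and 197 CPM. All lay below the lowest sham library (553 CPM). The share of all genes without overlap is not given for this diet comparison. The lack of overlap in Wif1, and in Wnt5b below, is therefore a description only. The log2 change was 1.00 with an SE of 0.21 (edgeR adjusted p = 0.0146).

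Wnt5b was 5.98, 5.76, 5.91, 6.86 and 7.65 CPM on the excess diet and 4.38, 3.63, 2.49, 3.67 and 3.44 CPM on the control diet, again without overlap (log2 change 0.91, SE 0.18, edgeR adjusted p = 0.0120). Fzd8 was 178, 164, 104, 128 and 136 CPM on the excess diet and 102, 102, 101, 110.0 and 103 CPM on the control diet (log2 change 0.69, SE 0.12, edgeR adjusted p = 0.00542). Here 1 excess diet library lay within the control diet range. These diet comparisons and the surgical comparison on the control diet share the Glenn control diet libraries, so their directions are not independent.

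These calls depend on single libraries. Without the first Glenn excess diet library, which held the highest Wif1 value of its group, 0 of the 4 genes passed: the log2 changes were 0.59 for Wif1 (adjusted p = 0.281), 0.97 for Wnt5b (0.0680), 0.65 for Fzd8 (0.0680) and -1.10 for Rspo1 (0.193) in edgeR. That library also stood at an end of the 15 Glenn libraries in its markers: its general capillary sum was 5761 CPM against 2548 to 4254 CPM in the others, its venous sum was the highest (2104 CPM) and its mesothelial sum the lowest (142 CPM). In the same diet comparison, the vessel markers Plvap, Gja5, Vwf and Ackr1 and the mural marker Rgs5 were called higher on the excess diet, with log2 changes of 0.86, 0.81, 0.72, 0.90 and 1.05. The part of these cells in the calls of Wif1, Wnt5b and Fzd8 was not tested. Without the fourth or the fifth Glenn control diet library 2 genes passed. The control diet group held only the lower library numbers and the excess diet group mostly the higher ones, and without that term in the fit 1 gene passed. Fitted changes include the term, and those of Fzd8 and Rspo1 are larger in size than their group means imply. Over the alternatives that left out no single library, the Fzd8 change ranged from 0.21 to 0.74 and that of Rspo1 from -1.30 to -0.63.

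R-spondins were described apart because of 1 of them. Rspo1 (ENSRNOG00000009656), which raises Wnt sensitivity by binding LGR receptors and the ligases, was the most abundant R-spondin by CPM. Over surgery it did not pass (log2 change -0.11, SE 0.14), and without the library number term the value was 0.04, also not called. Between diets after Glenn it was 27.3, 36.2, 64.9, 67.4 and 52.0 CPM on the excess diet and 47.3, 77.0, 48.3, 116 and 93.4 CPM on the control diet (log2 change -1.21, SE 0.27, edgeR adjusted p = 0.0230), with overlapping groups.

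Rspo1 varied with the RT1-CE16 level inside each arm, which is given as a description. Among sham libraries it ranged from 36.3 to 66.1 CPM in the 9 with the low level and from 69.9 to 113 CPM in the 6 with the high level, with no overlap. Among Glenn libraries it ranged from 27.3 to 77.0 CPM in the 8 with the low level and from 52.0 to 116 CPM in the 7 with the high level. The summed mesothelial markers Msln, Upk3b, Wt1 and Lrrn4 moved alongside: their medians were 234 and 433 CPM in the low and high sham libraries, and 257 and 413 CPM in the low and high Glenn libraries. Between Glenn excess and control diets, Lrrn4 was called, with a log2 change of -1.14 (edgeR adjusted p = 0.0128). Upk3b (-1.32), Msln (-0.80) and Wt1 (-0.82) were not called. None of these 4 markers was called between Glenn and sham. The part of mesothelial RNA in the Rspo1 difference was not tested.

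**Figure D5:**
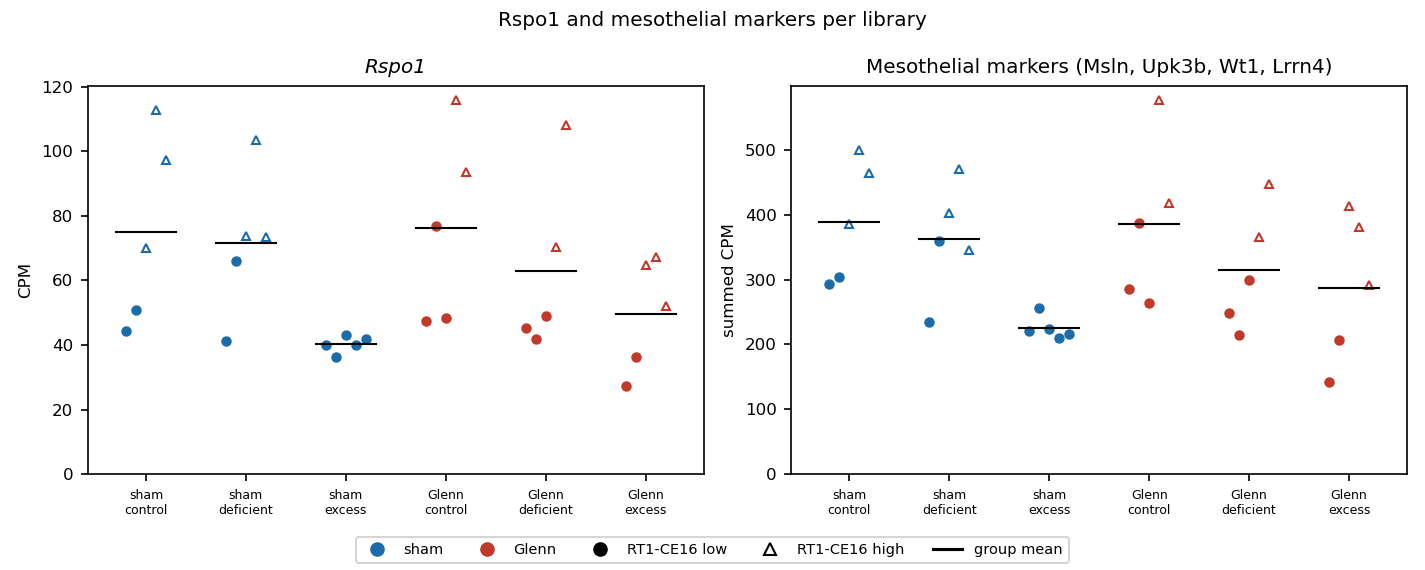
CPM per library of Rspo1 (left) and the summed CPM of 4 mesothelial markers (right) in the 6 groups, with sham libraries in blue, Glenn libraries in red, triangles for a high RT1-CE16 level, circles for a low level and bars at group means. In both arms most triangles lie above the circles, and the sham excess diet group, with circles only, is the lowest of the 3 sham groups in both panels.

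Between excess and control diets after sham, 1 gene passed, Rspo3, against 0.241% of all genes (0.0866% lower), and it was lower. Rspo3 (ENSRNOG00000011568), an R-spondin made by endothelial cells, had 1 count in total over the 5 sham excess diet libraries, 4 of which were at 0. The 5 sham control diet libraries had 7, 1, 4, 27 and 12 counts. The ratio of excess to control diet was 0.0215, with a 95% counting interval from 0.000533 to 0.125 that covers counting error only. The call was lost without a term for library number, with the RT1-CE16 level in its place, and when any of the 5 sham excess diet libraries or the third, the fourth or the fifth sham control diet library was left out. Glenn libraries on the excess diet had 11, 7, 12, 22 and 21 Rspo3 counts. Averaged over diets, Rspo3 passed between Glenn and sham (log2 change 1.30, SE 0.51, edgeR adjusted p = 0.0364), and that call was lost under 13 of 38 alternatives. By diet its log2 change was -0.54 on the control diet (SE 0.72) and 0.07 on the deficient diet (SE 0.80), neither called, and it was called on the excess diet, over the sham group with 1 count. Rspo2 did not pass between Glenn and sham (log2 change 0.98, SE 0.46).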

How the data were processed

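The authors deposited a table of estimated counts per gene for 30 libraries, and the submitters' processing notes name FastQC, Trim Galore, Picard, STAR and Salmon, with builds mRatBN7.2 and rn7. RNA came from a PureLink kit and libraries from a SMART-Seq Ultra Low kit, per the labels. Strand settings and gene lengths are not given in the sources used here, so levels were not compared between genes except by uncorrected CPM. Of the deposited expected counts, 13.6% were not whole, and all were rounded.

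Genes passed filterByExpr (minimum count 10, minimum total 15), counts were TMM-scaled, and 1 edgeR 4.0.16 quasi-likelihood fit (R 4.3.3) held 6 group means and a library number term. P-values were adjusted by Benjamini-Hochberg over 16171 genes, with a call at 0.05. The standard error is the log2 change over the square root of F. The steps were tested on simulated data. Alternatives used DESeq2 1.42.0 and limma 3.58.1 voom.

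Members and lists were chosen with earlier results of these data known. Values are given for the 14 called genes of at least 1 CPM with the largest changes, the feedback genes and TCF/LEF factors, genes called between diets, and the most abundant gene of each role. Fzd2, Fzd4, Dkk3, Wnt5a and others outside this rule were named after their values were seen.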

Additional observations from a re-analysis of the deposited data

Results flagged for a closer look

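In 7 of 138 sets of 5 libraries, a library stood apart from the other 4 of its group, where chance alone gives about 6.9. The distance to its nearest neighbour, divided by the whole spread of the 5 libraries, was 0.905 for Wif1 in the first Glenn excess diet library (461 CPM against 201 to 226 CPM in the others). It was 0.844 for Znrf3 in the third Glenn deficient diet library (13.5 CPM against 34.4 to 38.3 CPM). For Fzd8 it was 0.800 in the first Glenn deficient diet library (153 CPM against 105 to 115 CPM) and 0.726 in the fourth Glenn control diet library (110.0 CPM against 101 to 103 CPM). It was 0.810 for Fzd9 in the third sham control diet library (0.726 CPM against 0.390 to 0.454 CPM) and 0.730 for Axin2 in the second Glenn excess diet library (5.05 CPM against 6.65 to 7.25 CPM). For Rspo3 it was 1, from 1 count in the second sham excess diet library against 0 in the others.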

How the results depend on the processing

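Averaged over diets, 20 to 25 genes were called under the alternatives run, and no called result changed sign. The uncalled change of Rspo1 over surgery went from -0.11 to 0.04 without the library number term. On the deficient diet 20 calls became 12 in the lower library numbers alone and 13 in low RT1-CE16 libraries alone. The cause was not tested, although both use fewer libraries. For excess against control diet after sham (1 call), there were 0 without the library number term, in the lower numbers alone, with the RT1-CE16 level in its place, in low RT1-CE16 libraries alone, without a filter and with limma voom, and 3 with DESeq2. Leaving out a library gave 0 to 2. For excess against control diet after Glenn (4 calls), there was 1 without the library number term, 0 in low and 0 in high RT1-CE16 libraries alone (the latter chosen after seeing the data), and 2 with only the groups compared. Leaving out a library gave 0 to 6. For deficient against control diet after Glenn (0 calls), there was 1 with only the groups compared, 1 with DESeq2 and 0 to 1 with a library left out (1 without the first Glenn control diet library). The interaction gave 1 with DESeq2. The cause of these shifts was not tested. Rspo3 over surgery lost its call under 13 of 38 alternatives. Over all genes, excess against control diet after Glenn gave 237 calls, 19 without the library number term and 524 with DESeq2.

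Replicate numbers in the labels are not said to mark a shared animal or day. Of 75 same-number pairs, 25 had deviations correlated above 0.1, and 17 of 30 libraries correlated best with their own number. With the replicate block, 24 genes were called averaged over diets, 2 between excess and control diets after sham and 2 after Glenn, and 0 for the interaction. Low counts limit Fzd10, Rspo2, Rspo3, Notum and Dkk4, and the 11 untested genes.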

Other observations

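In the RefSeq annotation (GRCr8), 4 pairs of these Wnt genes are neighbours on a chromosome: Wnt3a and Wnt9a (chromosome 10), Wnt9b and Wnt3 (10), Wnt10b and Wnt1 (7), and Wnt6 and Wnt10a (9). Only for Wnt3a and Wnt9a were both genes tested, and both rose after Glenn surgery, by 0.98 and 1.25 on the log2 scale averaged over diets.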
